A study of Mus musculus with 8 samples.

Results

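The nuclear-encoded genes of the respiratory chain and of ATP synthase were followed in back skin of mice that received Alpinetin (AP) or its vehicle (VC). Members were the genes whose symbol begins with Nduf, Uqcr or Atp5, with Cox followed by a digit from 4 to 8, or is one of Sdha, Sdhb, Sdhc and Sdhd. They numbered 92 of the 18770 genes listed and were grouped as 36 subunits and 8 assembly factors of complex I and 4, 8, 19 and 17 subunits of complexes II, III, IV and V. Ndufa4, which carries a complex I name, is known as a subunit of complex IV and was placed there with its paralog Ndufa4l2.

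The respiratory chain sits in the inner mitochondrial membrane. Complexes I and II pass electrons from NADH and succinate to ubiquinone, complex III passes them to cytochrome c, complex IV passes them to oxygen, and ATP synthase, called complex V, makes ATP from the proton gradient that complexes I, III and IV build. Apart from complex II, each complex joins subunits encoded by mitochondrial DNA, in complex III only cytochrome b, with a larger number of nuclear-encoded ones, and skin holds cell types that differ widely in their mitochondrial content, from muscle fibres to cornifying keratinocytes.

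All mice were wildtype C57BL/6J males aged 7-8 weeks whose dorsal hair had been removed by depilation. AP, a plant flavonoid, was applied topically once a day from 24 h after depilation as 20 µl of a 3 mg/ml solution in 65% ethanol, and VC mice received 65% ethanol alone. At day 4 after depilation, mRNA was sequenced from dermis with hair follicles after removal of the interfollicular epidermis, from 4 mice per group. Libraries carry the names VC.1-VC.4 for vehicle and AP.1-AP.4 for Alpinetin, and none could be tied to an individual mouse. No batch was given.

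The values were normalized counts, that is, reads per gene divided by a size factor of the library, and the reads behind them could be recovered. Between 6454563 and 7264151 gene-assigned reads made up each VC library, and between 8507783 and 11190113 each AP library. Genes encoded by mitochondrial DNA took 48.4 ± 5.81% of them in VC and 8.66 ± 2.63% in AP libraries (mean ± SD, n = 4). The nuclear-encoded members together took 0.8099, 0.928, 0.929 and 0.641% of all reads across VC.1-VC.4 and 1.15, 1.098, 1.004 and 1.12% across AP.1-AP.4. Of the reads outside the mitochondrially encoded genes, they took 1.77, 1.68, 1.604 and 1.34% in the VC libraries and 1.299, 1.19, 1.06 and 1.25% in the AP libraries. The AP libraries therefore lay above every VC library when all reads were the base (1.09 ± 0.0647% against 0.827 ± 0.136%, SD, n = 4 each) and below every VC library when mitochondrially encoded genes were left out (1.201 ± 0.103% against 1.601 ± 0.186%). The deposited scaling lay near the latter base, since scaling by total counts without the mitochondrially encoded genes moved the all-gene median of the log2 fold changes by 0.04, and the values below are levels on that scale.

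The first comparison asked how many members differed between AP and VC skin, with limma's moderated test on log2(normalized count + 1) and Benjamini-Hochberg adjustment over the 15964 genes that reached 3 normalized counts in 4 or more of the 8 libraries. Of the 91 members tested, 25 were lower in the AP group at an adjusted p under 0.05 (27.5%, against 4.003% of all genes tested) and 0 were higher (against 6.33%), whereas scaling by total counts turned the direction and gave 0 lower and 27 higher members, while 70 of all 15964 genes were lower and 8657 higher. Each p rests on 4 libraries against 4. At an unadjusted p under 0.05, 60 members were lower and 0 higher, against 2120 lower and 2720 higher of all 15964 genes. On the recovered reads, edgeR gave 27 lower members (against 4.46% of all genes) and DESeq2 41 (against 8.55% of all genes), and both gave 0 higher members. The log2 fold change was below 0 in 84 of the 91 members, against 46.5% of all genes. In 39 members every AP library lay below every VC library (against 8.91% of all genes), and in 0 every AP library lay above (against 10.3%).

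The median log2 fold change of the members was -0.50, with the middle of the list between -0.71 and -0.34 (lower and upper quartile), and that of all genes was 0.06. Under total-count scaling the median of all genes moved by 0.84 to 0.90 and that of the members to 0.37, so that the members lay -0.53 from all genes in place of -0.56. The mean level of the members on the log2 scale was 9.57, 9.40, 9.28 and 9.12 across VC.1-VC.4 and 8.99, 8.75, 8.54 and 8.90 across AP.1-AP.4. Every AP library lay below every VC library, with the nearest values in VC.4 and AP.1 and the lowest in AP.3. The number of members called lower rested on single libraries: it was 2, 1 and 4 without AP.2, AP.3 or AP.4, and 8 and 14 without VC.1 or VC.2, while the calls over all genes dropped as well, to 0.971%, 0.589% and 0.871% lower without those AP libraries and 1.63% and 3.15% without those VC libraries. It was 27 without AP.1 (against 5.12% of all genes), and 1 when limma was run without the intensity trend (against 1.35%). The samples are of whole tissue, in which fewer cells of a type and less RNA per cell cannot be told apart.

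**Figure D1:**
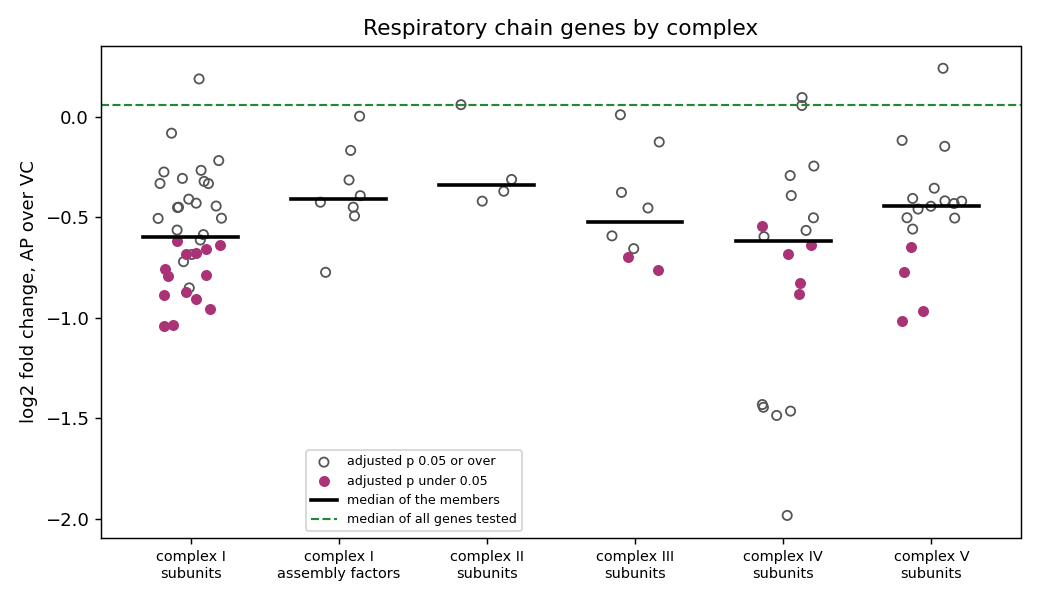
Log2 fold change (AP over VC) of each of the 91 members tested, by complex, as points, with the median of each group as a black bar and the median of all genes tested (0.06) as a dashed line. Filled points are the 25 members with a limma adjusted p under 0.05, all of them below 0 on the deposited scaling; under total-count scaling 15 of the 91 members lay below 0.

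Complex I oxidises NADH and is the largest complex of the chain. Of its 36 nuclear-encoded subunits, 14 were lower in AP skin (against 4.003% of all genes) and 0 higher (against 6.33%), with 35 log2 fold changes below 0 and a median of -0.60 that became 0.27 under total-count scaling. At an unadjusted p under 0.05, 26 were lower (of all 15964 genes, 2120), and in 19 the AP libraries lay below every VC library (against 8.91% of all genes). Ndufb7, a supernumerary subunit at the outer face of the membrane arm (ENSMUSG00000033938, chr8:83566671-83571626, GRCm38), had 909.5, 745, 664 and 713 normalized counts across VC.1-VC.4 and 465, 336, 301 and 379.8 across AP.1-AP.4. These rested on 380 to 504 reads in the VC libraries and 531 to 641 in the AP libraries. All AP values lay below all VC values, and Ndufb7 fell to 0.489 times its VC mean (log2 fold change -1.04, SE 0.17, limma adjusted p = 0.00932). It was below the threshold with each library left out (adjusted p 0.00397 to 0.0385 with limma), but not under total-count scaling (-0.17, adjusted p = 0.427).

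Ndufa13, a supernumerary subunit also known as GRIM-19 (ENSMUSG00000036199, chr8:69894180-69902558), had 1109.6, 817, 811 and 668 normalized counts across VC.1-VC.4 and 543, 414, 318 and 384 across AP.1-AP.4 (log2 fold change -1.04, SE 0.20, limma adjusted p = 0.0151). Ndufa5, of the matrix arm, had 866, 593, 815 and 606 normalized counts across VC.1-VC.4 and 458, 341, 273 and 416 across AP.1-AP.4 (log2 fold change -0.96, SE 0.20, limma adjusted p = 0.0188). In both genes the groups did not overlap, and AP.3 held the lowest value. Ndufa2, of the NADH-oxidising part of the matrix arm and the complex I member with the highest mean per kilobase of transcript (1578 normalized counts per kilobase), had 1783, 983, 1071 and 911 normalized counts across VC.1-VC.4 and 733, 625, 450.4 and 666 across AP.1-AP.4 (log2 fold change -0.91, SE 0.23, limma adjusted p = 0.0328). Its VC.1 value stood well above the other VC libraries, which were still all above AP.1.

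Ndufab1 is the mitochondrial acyl carrier protein, which complex I holds as a subunit. Its values were 1015, 924, 868 and 688 normalized counts across VC.1-VC.4 and 550.5, 517, 404 and 595 across AP.1-AP.4 (log2 fold change -0.76, SE 0.17, limma adjusted p = 0.0247). Ndufs4, an accessory subunit of the matrix arm whose loss causes Leigh-like disease, had 566, 582, 533 and 495 normalized counts across VC.1-VC.4 and 409, 296, 325 and 355 across AP.1-AP.4 (log2 fold change -0.66, SE 0.15, limma adjusted p = 0.0253). The spread within each group was small for Ndufs4, and the groups did not overlap. The other supernumerary subunits called lower were Ndufa3 (-0.89, adjusted p = 0.0225), Ndufs6 (-0.87, adjusted p = 0.0241), Ndufb4 (-0.79, adjusted p = 0.0304), Ndufa12 (-0.68, adjusted p = 0.0386), Ndufa8 (-0.68, adjusted p = 0.0418) and Ndufv3 (-0.62, adjusted p = 0.0419), all with limma and with the AP libraries below every VC library.

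Complex I also has 7 nuclear-encoded core subunits that bacteria share, which carry the flavin and the iron-sulfur clusters. This split was chosen after the values were seen and was not tested. Of the core subunits 2 of 7 were called lower, with a median of -0.33, and of the 29 supernumerary subunits 12, with a median of -0.62, against 4.003% of all genes called lower. The core subunits have longer transcripts (median 1623 against 704 nt), and with the length trend removed 0 core and 5 supernumerary subunits were called (against 2.83% of all genes), with medians of -0.19 and -0.37. The core subunits called were Ndufs7 (-0.79, adjusted p = 0.02299), next to the ubiquinone site, and Ndufv2 (-0.64, adjusted p = 0.0355), of the NADH-oxidising flavoprotein part, both by limma. Ndufs1, the largest core subunit, had 358, 566, 397 and 328 normalized counts across VC.1-VC.4 and 507, 426, 476 and 434 across AP.1-AP.4 (log2 fold change 0.19, SE 0.18, limma adjusted p = 0.519). Its groups overlapped, and it was the complex I subunit with the highest log2 fold change. Ndufa9, a supernumerary subunit near the ubiquinone site, had 526, 529, 427 and 396 normalized counts across VC.1-VC.4 and 502, 377, 426 and 464 across AP.1-AP.4 (log2 fold change -0.08, SE 0.16, limma adjusted p = 0.768), again with overlap.

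Assembly factors help to build complex I and are not part of the finished enzyme. By limma 0 of the 8 were called lower (against 4.003% of all genes) and 0 higher (against 6.33%), and 1 was lower at an unadjusted p under 0.05 (of all 15964 genes, 2120). Both edgeR and voom called 0 (against 4.46% and 4.53% of all genes lower), and DESeq2 called 1 lower (against 8.55% of all genes). Their median was -0.41 (0.45 under total-count scaling). Ndufaf8, a partner of Ndufaf5 and the factor with the highest mean per kilobase (212), had 333, 132, 224 and 163 normalized counts across VC.1-VC.4 and 136, 115, 89.2 and 132 across AP.1-AP.4 (log2 fold change -0.77, SE 0.29, limma adjusted p = 0.0978). AP.1 and AP.4 lay just above the lowest VC value, that of VC.2. Ndufaf3 had 107, 173, 150.2 and 111 normalized counts across VC.1-VC.4 and 89.9, 97.6, 84.7 and 104 across AP.1-AP.4, and although its groups did not overlap, it did not pass (log2 fold change -0.49, SE 0.23, limma adjusted p = 0.1702). Ndufaf7, a methyltransferase, and Ndufaf1, of the membrane arm intermediate, had log2 fold changes of -0.31 and -0.17 (limma adjusted p = 0.346 and 0.682).

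Complex II, succinate dehydrogenase, is encoded by nuclear genes alone and also belongs to the tricarboxylic acid cycle. By limma 0 of its 4 subunits were called (against 4.003% of all genes lower and 6.33% higher), 1 was lower at an unadjusted p under 0.05 (of all 15964 genes, 2120), edgeR, DESeq2 and voom called 0, and the median was -0.34 (0.53 under total-count scaling). Sdhd, a membrane anchor, had 742, 650.2, 520.2 and 634 normalized counts across VC.1-VC.4 and 479, 500.4, 407 and 509 across AP.1-AP.4 (log2 fold change -0.42, SE 0.16, limma adjusted p = 0.1001). All its AP libraries were below all VC libraries without passing the adjusted threshold. Sdhb, the iron-sulfur subunit and the highest of the 4 per kilobase (588 normalized counts per kilobase), had 900.4, 779, 766 and 589 normalized counts across VC.1-VC.4 and 670.2, 617, 491 and 556 across AP.1-AP.4 (log2 fold change -0.37, SE 0.17, limma adjusted p = 0.166). Sdhc, the other anchor, had a log2 fold change of -0.31 (limma adjusted p = 0.188). Sdha, the flavoprotein that oxidises succinate, had 979, 1088, 974 and 879 normalized counts across VC.1-VC.4 and 1123, 1185, 871 and 929 across AP.1-AP.4 (log2 fold change 0.06, SE 0.15, limma adjusted p = 0.818), and AP.1 and AP.2 were higher than every VC library.

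Complex III carries electrons from ubiquinol to cytochrome c. Of its 8 members 2 were lower in AP skin (against 4.003% of all genes) and 0 higher, 6 were lower at an unadjusted p under 0.05 (of all 15964 genes, 2120), and the median was -0.52 (0.35 under total-count scaling). Uqcrh, the hinge protein at the site of cytochrome c1 (ENSMUSG00000063882, chr4:116066965-116075071), had 2699, 2107, 1699 and 1646 normalized counts across VC.1-VC.4 and 1329, 1067, 1022 and 1329 across AP.1-AP.4 (log2 fold change -0.76, SE 0.19, limma adjusted p = 0.0308). Uqcr10, a small membrane subunit, had 1369.8, 1306, 1137 and 962 normalized counts across VC.1-VC.4 and 845, 679, 570.0 and 860.4 across AP.1-AP.4 (log2 fold change -0.70, SE 0.18, limma adjusted p = 0.0344). Neither gene overlapped between the groups. Uqcrq, a small subunit beside cytochrome b with the highest mean per kilobase of complex III (4048), had 2647, 2293, 1670.0 and 1455 normalized counts across VC.1-VC.4 and 1468, 1183, 950.2 and 1448 across AP.1-AP.4 (log2 fold change -0.66, SE 0.22, limma adjusted p = 0.07299), so that AP.1 lay just above VC.4. The large core proteins Uqcrc1 and Uqcrc2 did not separate the groups. Uqcrc1 had 1357, 1994, 1406 and 1448 normalized counts across VC.1-VC.4 and 1470.1, 1316, 1319 and 1525 across AP.1-AP.4 (log2 fold change -0.13, SE 0.16, limma adjusted p = 0.6302), and Uqcrc2 had 829, 961, 665 and 673 normalized counts across VC.1-VC.4 and 797, 745, 729.9 and 847 across AP.1-AP.4 (log2 fold change 0.01, SE 0.16, limma adjusted p = 0.973).

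Complex IV, cytochrome c oxidase, reduces oxygen with subunits encoded in the mitochondria, which its nuclear-encoded subunits surround. Of 19 members 18 were tested, 5 of them were lower (against 4.003% of all genes) and 0 higher (against 6.33%), 13 were lower at an unadjusted p under 0.05 (of all 15964 genes, 2120), and the median was -0.62 (0.25 under total-count scaling). The member not tested, Cox5b-ps, which is annotated as protein-coding despite its symbol, had 0 to 12 reads per library. Cox7c, a small subunit near the membrane (ENSMUSG00000017778, chr13:86044816-86046904), had 3061, 1843, 1699 and 1650.0 normalized counts across VC.1-VC.4 and 1159, 1049, 901 and 1250.2 across AP.1-AP.4 (log2 fold change -0.88, SE 0.21, limma adjusted p = 0.0273). Cox6c had 4131, 2229.9, 2346 and 2379 normalized counts across VC.1-VC.4 and 1653, 1491, 1281 and 1642 across AP.1-AP.4 (log2 fold change -0.83, SE 0.21, limma adjusted p = 0.0328). VC.1 was far above the other VC libraries in both genes, and all AP libraries lay below all VC libraries. Cox5a, which faces the matrix, Cox7a2l, a Cox7a-related protein that joins complexes III and IV, and Cox8a were also lower by limma, at -0.68, -0.64 and -0.55 (adjusted p = 0.0386, 0.0431 and 0.04501). Cox8a was called by DESeq2 and voom but not by edgeR (adjusted p = 0.0547).

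Cox4i1, an early-assembling subunit, had the highest mean per kilobase of complex IV (4850.3), with 5421, 4441, 3371 and 4198 normalized counts across VC.1-VC.4 and 3077, 2715, 2316 and 3369 across AP.1-AP.4. All AP libraries lay below all VC libraries, AP.4 and VC.3 by a narrow margin (log2 fold change -0.60, SE 0.19, limma adjusted p = 0.0683). Ndufa4 had 1469.8, 901, 961 and 763 normalized counts across VC.1-VC.4 and 1024, 997, 933 and 1192 across AP.1-AP.4 (log2 fold change 0.06, SE 0.20, limma adjusted p = 0.873), and its paralog Ndufa4l2, known as a hypoxia-induced gene, had 695, 508, 367 and 553 normalized counts across VC.1-VC.4 and 575, 389.8, 529.6 and 789 across AP.1-AP.4 (log2 fold change 0.10, SE 0.24, limma adjusted p = 0.817). These were the complex IV members with the highest log2 fold changes, and their groups overlapped. The ubiquitous Cox6a1 and Cox7a2 had log2 fold changes of -0.25 and -0.29 (limma adjusted p = 0.268 and 0.2802).

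Several complex IV subunits have tissue isoforms, of which Cox6a2, Cox7a1 and Cox8b are those of heart and skeletal muscle. Cox6a2 (ENSMUSG00000030785, chr7:128205435-128206387) had 360.2, 497, 496 and 186 normalized counts across VC.1-VC.4 and 412, 62.5, 28.9 and 85.8 across AP.1-AP.4 (log2 fold change -1.98, SE 0.64, limma adjusted p = 0.0678). Cox8b had 251, 364, 279 and 139 normalized counts across VC.1-VC.4 and 244, 75.5, 46.3 and 68.7 across AP.1-AP.4 (log2 fold change -1.46, SE 0.46, limma adjusted p = 0.06099). Cox7a1 had 83.7, 129, 135 and 30.00 normalized counts across VC.1-VC.4 and 92.1, 25.3, 12.95 and 23.6 across AP.1-AP.4 (log2 fold change -1.45, SE 0.61, limma adjusted p = 0.135). In all 3 genes AP.1 was within the range of the VC libraries and AP.2, AP.3 and AP.4 were below every VC library. With a library left out, the limma adjusted p ranged from 0.004397 to 0.174 for Cox6a2, from 0.00697 to 0.167 for Cox8b and from 0.0374 to 0.319 for Cox7a1, and of these 8 fits only that without AP.1 called each gene. On all 8 libraries voom called Cox6a2 (adjusted p = 0.0452) and Cox8b (0.0448) but not Cox7a1 (0.0869), and edgeR and DESeq2 called none of them. Cox4i2, the isoform known from lung and induced by low oxygen, had 36.4, 35.5, 66.9 and 135 normalized counts across VC.1-VC.4 and 29.7, 33.97, 13.5 and 14.3 across AP.1-AP.4 and was highest in VC.4, with a narrow gap between the groups (log2 fold change -1.43, SE 0.50, limma adjusted p = 0.0823). DESeq2 called Cox4i2 lower (adjusted p = 0.0183), but edgeR (0.0636) and voom (0.0740) did not. Cox6b2, the isoform known from testis, had 74.6, 36.9, 80.6 and 24.4 normalized counts across VC.1-VC.4 and 18.1, 14.6, 14.9 and 19.3 across AP.1-AP.4, all AP libraries below all VC libraries and AP.1 with the other AP libraries (log2 fold change -1.49, SE 0.44, limma adjusted p = 0.0512). Unlike limma, edgeR, DESeq2 and voom each called Cox6b2 lower.

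The ratio of a tissue isoform to its ubiquitous partner within a library hardly depends on scaling, and 5 such ratios were compared with a two-sided exact permutation test, whose smallest p for 4 against 4 libraries is 0.0286. Cox6a2 per 100 Cox6a1, both as normalized counts, was 17.98, 26.2, 29.98 and 11.5 across VC.1-VC.4 and 26.4, 4.21, 2.11 and 5.296 across AP.1-AP.4 (difference of the log2 ratios -1.74, exact permutation p = 0.114, adjusted over the 5 ratios 0.286). For Cox7a1 per 100 Cox7a2 the values were 8.68, 17.2, 18.97 and 4.92 across VC.1-VC.4 and 16.02, 3.87, 2.500 and 3.31 across AP.1-AP.4 (difference of the log2 ratios -1.15, exact permutation p = 0.143, adjusted over the 5 ratios 0.286). For Cox8b per 100 Cox8a they were 11.8, 21.5, 15.2 and 8.99 across VC.1-VC.4 and 19.9, 5.54, 4.36 and 5.46 across AP.1-AP.4 (difference of the log2 ratios -0.92, exact permutation p = 0.171, adjusted over the 5 ratios 0.286). AP.1 stood with the VC libraries in these ratios and apart from AP.2, AP.3 and AP.4, and none passed the test. Cox4i2 per 100 Cox4i1 gave a difference of the log2 ratios -0.84, exact permutation p = 0.257, adjusted over the 5 ratios 0.321, and Ndufa4l2 per 100 Ndufa4 a difference of the log2 ratios 0.04, exact permutation p = 0.886, adjusted over the 5 ratios 0.886.

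Markers of skeletal muscle varied in the same libraries. Of the 17 muscle markers, all tested, 2 were lower by limma (against 4.003% of all genes), 2 by voom and 0 by edgeR or DESeq2, and 0 were higher, with a median log2 fold change of -1.74, and their summed normalized counts were 68486, 97326, 52169.9 and 51779 across VC.1-VC.4 and 98545, 12989.5, 7607 and 15820.4 across AP.1-AP.4. The most abundant, Acta1, the actin of muscle fibres, had 19869.6, 26816, 12919 and 15782 normalized counts across VC.1-VC.4 and 20882, 3513, 1683 and 4336 across AP.1-AP.4 (log2 fold change -1.92, SE 0.61, limma adjusted p = 0.0628). The markers called lower were Casq1 (-2.25, adjusted p = 0.0286) and Tnnc2 (-2.05, adjusted p = 0.0497), and Ckm, nearest the list's median, had -1.74. All 17 log2 fold changes lay below 0 (against 46.5% of all genes), and 13 were lower at an unadjusted p under 0.05 (of all 15964 genes, 2120). None of the markers was at 0 in every library. In AP.1 the summed muscle markers lay above every VC library, and in the other AP libraries below. The part of muscle in the values of the isoforms and of the other members was not tested.

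**Figure D2:**
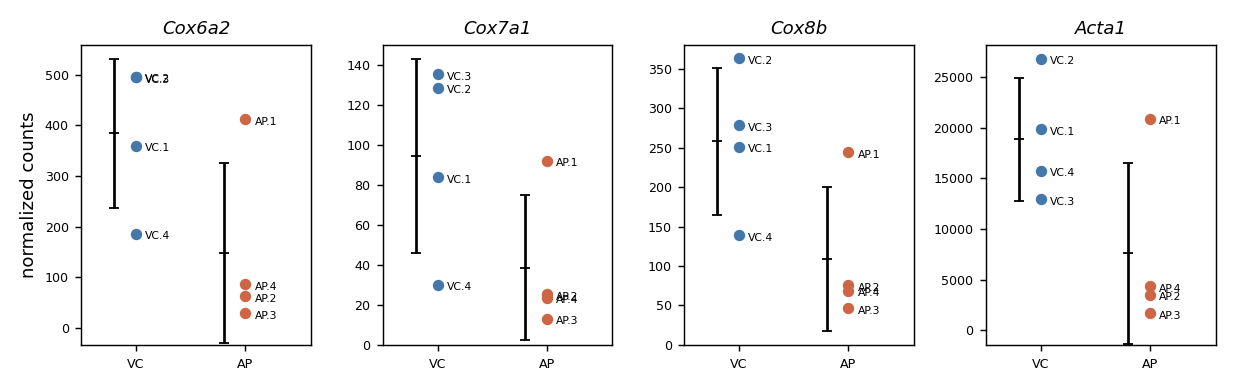
Normalized counts (linear axes) of the muscle isoforms Cox6a2, Cox7a1 and Cox8b and of the muscle actin Acta1 in each library, with the group mean and SD (n = 4) as a bar beside the points. In each panel AP.1 lies near the VC libraries and AP.2, AP.3 and AP.4 lie below them.

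Complex V makes ATP in a catalytic head that a rotating ring of c subunits drives, held in place by a stalk. Of its 17 members 4 were lower (against 4.003% of all genes) and 0 higher, 13 were lower at an unadjusted p under 0.05 (of all 15964 genes, 2120), and the median was -0.45 (0.43 under total-count scaling). Atp5k, subunit e, which joins the enzyme in pairs in the membrane (ENSMUSG00000050856, chr5:108433244-108434448), had 1221, 903, 1143 and 533 normalized counts across VC.1-VC.4 and 500.4, 399.5, 343 and 584 across AP.1-AP.4 (log2 fold change -1.02, SE 0.26, limma adjusted p = 0.0348). AP.4 was above VC.4, so its groups overlapped. Atp5o, which ties the stalk to the head, had 266, 228, 214 and 141 normalized counts across VC.1-VC.4 and 119.7, 100.3, 77.7 and 132 across AP.1-AP.4 (log2 fold change -0.97, SE 0.25, limma adjusted p = 0.03503), and Atp5h, of the stalk, had 2576, 1510.3, 1591 and 1521 normalized counts across VC.1-VC.4 and 1028, 976, 930.2 and 1179 across AP.1-AP.4 (log2 fold change -0.77, SE 0.19, limma adjusted p = 0.0307). Atp5g1, which encodes a c subunit, was the fourth member called (log2 fold change -0.65, SE 0.16, limma adjusted p = 0.0315). In Atp5o, Atp5h and Atp5g1 all AP libraries lay below all VC libraries.

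The subunits of complex V were also split into catalytic head, c ring and the rest, a grouping chosen after the values were seen and not tested. Atp5b, the catalytic beta subunit, had 3718, 6207, 4391 and 4404 normalized counts across VC.1-VC.4 and 5365, 5845, 5012 and 5548 across AP.1-AP.4 (log2 fold change 0.24, SE 0.19, limma adjusted p = 0.426). Atp5a1, the alpha subunit, had 4857, 5338, 3967 and 4142 normalized counts across VC.1-VC.4 and 4411, 4346, 3702 and 4334 across AP.1-AP.4 (log2 fold change -0.12, SE 0.17, limma adjusted p = 0.676). Both overlapped between the groups, and VC.2 held the highest value of each. Atp5e, the epsilon subunit of the head's central stalk and the highest of all members per kilobase (5488 normalized counts per kilobase), had 3916, 2812, 2233 and 2102 normalized counts across VC.1-VC.4 and 2061, 1679.6, 1375 and 2306 across AP.1-AP.4 (log2 fold change -0.56, SE 0.23, limma adjusted p = 0.129). The head's 5 subunits had a median log2 fold change of -0.15, the 3 genes of the c ring -0.46 and the 9 other subunits -0.50. With the length trend removed these medians were -0.13, -0.16 and -0.20, nearer to each other.

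Set side by side, the mean log2 level of complex I subunits was 9.39, 9.17, 9.04 and 8.89 across VC.1-VC.4 and 8.75, 8.502, 8.34 and 8.63 across AP.1-AP.4. That of complex II was 9.69, 9.60, 9.43 and 9.42 across VC.1-VC.4 and 9.43, 9.40, 9.05 and 9.22 across AP.1-AP.4. The subunits of complexes I, IV and V and the complex I assembly factors kept every AP library below every VC library, whereas AP.1 of complex II lay between the VC libraries. For complex III the levels were 10.48, 10.36, 10.11 and 9.92 across VC.1-VC.4 and 9.90, 9.68, 9.54 and 9.94 across AP.1-AP.4, so that AP.4 was just above VC.4. Complex IV had 9.74, 9.48, 9.48 and 9.16 across VC.1-VC.4 and 9.08, 8.62, 8.29 and 8.78 across AP.1-AP.4, and complex V had 10.71, 10.57, 10.39 and 10.27 across VC.1-VC.4 and 10.10, 9.998, 9.78 and 10.20 across AP.1-AP.4. AP.3 was the lowest library for each complex, and VC.1 the highest for each apart from the complex I assembly factors, where VC.3 was. Differences between the complexes were not tested.

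**Figure D3:**
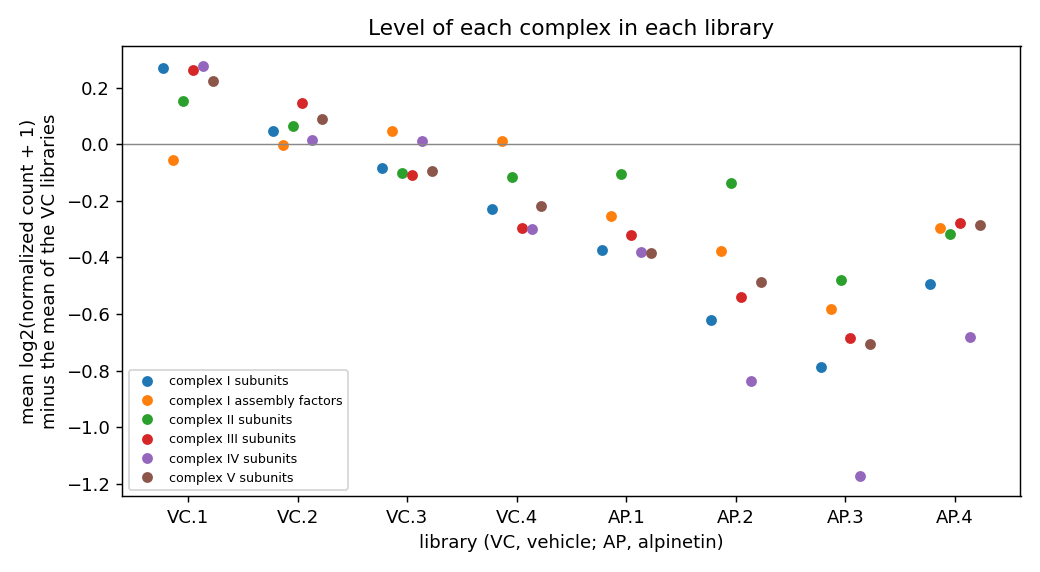
Mean log2(normalized count + 1) of the members of each complex in each library, minus the mean of the 4 VC libraries. The lowest point is complex IV in AP.3, where its ubiquitous subunits had a mean log2 level of 9.82 against a VC mean of 10.56 and its tissue isoforms 5.19 against 7.22; these levels use the deposited scaling, and under total-count scaling the median of every complex was above 0.

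Most members have short transcripts, and log2 fold changes varied with transcript length over all genes. The median length was 745 nt over the members, from 315 to 3632 nt, and 2642.5 nt over all genes tested. Among other protein-coding genes under 1000 nt, 13.2% of 1095 were called lower by limma and the median log2 fold change was -0.37, while of the 59 members of that length 18 were called and the median was -0.59. From 1000 to 2000 nt it was 6.22% of 3409 other genes with a median of -0.21, and 7 of 26 members with -0.38. From 2000 to 4000 nt 2.69% of 5905 other genes were called, with a median of 0.06, and the 6 members -0.21 with 0 called. Spearman's rho between length and log2 fold change was 0.44 across the 91 members and 0.28 across all genes, given as a description because genes of the same libraries are not independent.

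When the trend on length was removed in each library before the fit, 5 members stayed below the threshold (2.83% of all genes were lower) and 0 were higher, with 75 of 91 log2 fold changes below 0. The 5 were the complex I subunits Ndufb7 (-0.73, limma adjusted p = 0.0181), Ndufa13 (-0.79, 0.03305), Ndufa5 (-0.66, 0.0459), Ndufa3 (-0.57, 0.04997) and Ndufs4 (-0.54, 0.0493). The medians of the complexes became -0.37 for complex I subunits, -0.17 for its assembly factors, -0.13 for complex II, -0.22 for complex III, -0.33 for complex IV and -0.16 for complex V, against -0.01 for all genes.

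**Figure D4:**
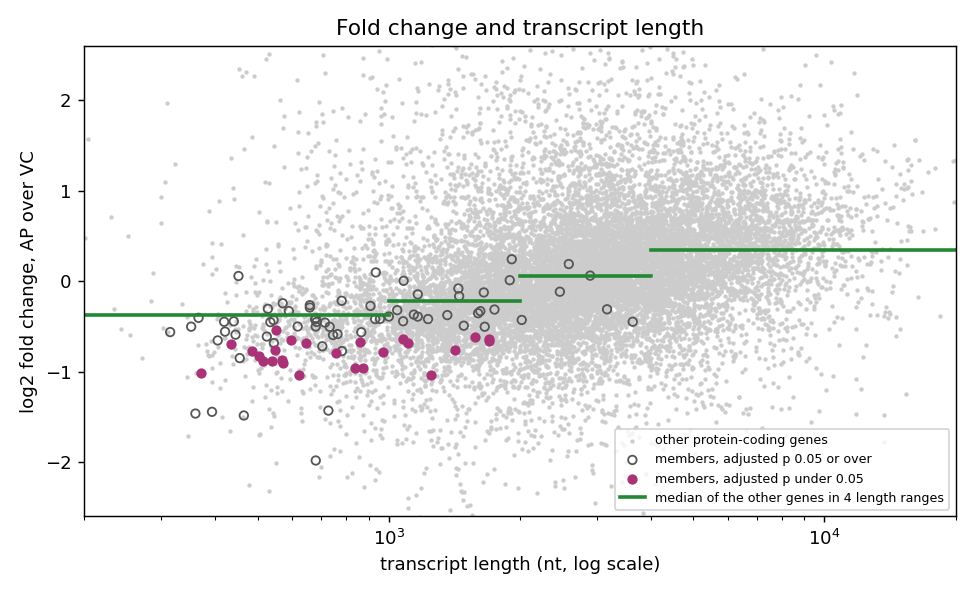
Log2 fold change (AP over VC) against transcript length (nt, log axis) for the members (circles, filled where the limma adjusted p was under 0.05) and for other protein-coding genes (grey), with the median of the other genes in 4 length ranges as green bars; 227 other genes lie beyond the axes. The green bars climb from -0.37 under 1000 nt to 0.35 from 4000 nt on, and most members sit at the short end.

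Many members have processed pseudogenes, and reads from the copies may have been split or dropped in counting. In 24 members over 10% of the 50-base words of the transcript also occur in transcripts of other genes, among them Cox7c, Cox6c, Cox7a2l, Atp5h, Atp5g1, Atp5o, Ndufab1, Ndufb4, Ndufa12 and Ndufs6, whose values are uncertain for that reason. Without these 24, 15 of 68 members were called lower by limma, with a median log2 fold change of -0.45, and of those with such words 10 of 23, with -0.64, against 4.003% of all genes called. The values of Ndufb7, Ndufa5, Ndufa3, Ndufs4, Ndufs7, Ndufa8 and Uqcr10 have no such words in other genes.

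The mitochondrially encoded subunits of the same complexes differed by more. By limma 10 of the 12 tested were lower (against 4.003% of all genes) and 0 higher, with a median log2 fold change of -3.38, and all 12 had every AP library below every VC library. mt-Nd6, of complex I, had 192208, 127586, 96574 and 182630.0 normalized counts across VC.1-VC.4 and 21966, 10344, 8813 and 18033 across AP.1-AP.4 (log2 fold change -3.39, SE 0.45, limma adjusted p = 0.00435). mt-Co2, of complex IV, had 2077, 1290.1, 1294 and 1524 normalized counts across VC.1-VC.4 and 243, 229, 116 and 251 across AP.1-AP.4 (log2 fold change -2.91, SE 0.26, limma adjusted p = 9.18e-04), and mt-Atp6, of complex V, had 1153, 763, 789 and 1157 normalized counts across VC.1-VC.4 and 159.6, 150.4, 81.2 and 171 across AP.1-AP.4 (log2 fold change -2.80, SE 0.25, limma adjusted p = 9.18e-04). No library crossed over between the groups in these genes. Words shared with other genes were searched for the nuclear-encoded members only, not for these genes. For mt-Co1, the most abundant and the nearest to the median, the limma adjusted p was 0.1802 at a log2 fold change of -3.37, that of mt-Cytb was 0.0578, and edgeR called all 12. Reads on the nuclear-encoded members per 100 reads on mitochondrially encoded genes, a ratio that no scaling of the library changes, were 1.49, 2.06, 2.205 and 1.23 across VC.1-VC.4 and 10.4, 13.99, 18.9 and 10.9 across AP.1-AP.4.

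Assembly factors outside the naming rule were taken from lists and tested in the same fit, in which 4.003% of all genes were lower. Of those of complex I, 6 of 11 were lower and 1 higher at an unadjusted p under 0.05 (of all 15964 genes, 2120 and 2720). The 1 higher was Acad9 (0.93, limma adjusted p = 0.147), and 3 of the 11 lay above 0. At an adjusted p under 0.05, 1 of 11 was lower by limma, Tmem126b (-0.77, adjusted p = 0.0352), and the median was -0.44, at which Dmac2 lay. For complex III it was 2 of 6, Uqcc2 (-0.84, adjusted p = 0.0308) and Uqcc3 (-0.84, adjusted p = 0.0283), which act in the synthesis and stability of cytochrome b, with a median of -0.20. Uqcc2 had 1168, 1088, 1012 and 876 normalized counts across VC.1-VC.4 and 712, 416, 489 and 764 across AP.1-AP.4. For complex IV 1 of 21 was lower, near the share of all genes called lower (4.003%), namely Cox20 (-0.87, adjusted p = 0.0418), a chaperone of a mitochondrially encoded subunit, with a median of -0.38 near that of Surf1 (-0.38). For complexes II and V limma called 0 of 4 and 0 of 4, with 0 at an unadjusted p under 0.05 and 0 by edgeR, DESeq2 or voom in either list, and medians of -0.22 and -0.17. Under total-count scaling Tmem126b, Uqcc2 and Uqcc3 had log2 fold changes above 0, as had Coq7 and Idh3b of the lists that follow. With the length trend removed, limma called none of Tmem126b, Uqcc2, Uqcc3, Cox20, Coq7, Idh3b and Ssbp1 (adjusted p 0.0511 to 0.139). Of 8 fits with a library left out, Coq7 was called in 1, Cox20 and Idh3b in 2 and Tmem126b in 3. Uqcc2 and Uqcc3 were called in 4 and Ssbp1 in 7.

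Of the electron carriers and the enzymes of ubiquinone synthesis, 1 of 18 was lower by limma (5.56%, near the 4.003% of all genes), Coq7 (-0.86, adjusted p = 0.03401), a hydroxylase of that pathway, and the median was -0.29. Cyc1, which encodes cytochrome c1 of complex III but falls outside the naming rule, was in this list (-0.21, limma adjusted p = 0.422). Coq7 had 206, 169.9, 208 and 124 normalized counts across VC.1-VC.4 and 90.7, 104, 93.7 and 91.6 across AP.1-AP.4, with all AP libraries below all VC libraries. In the tricarboxylic acid cycle 1 of 13 was lower (7.69%, against the same share), Idh3b (-0.58, adjusted p = 0.0386), a subunit of the NAD-dependent isocitrate dehydrogenase, and the median was -0.12, near that of Dlst. Of the 16 regulators of mitochondrial biogenesis, limma called 1 lower (6.25%), again against 4.003% of all genes, Ssbp1 (-0.98, adjusted p = 0.0172), the binding protein of single-stranded mitochondrial DNA, and 0 higher, and the median was 0.004. At an unadjusted p under 0.05, 2 were lower and 2 higher (of all 15964 genes, 2120 and 2720). DESeq2 called 2 lower (against 8.55% of all genes) and 1 higher. Every AP library lay above every VC library in 2 of the 16 (against 10.3% of all genes) and below in 2 (12.5%, against 8.91%), both near the shares of all genes. The 2 above were Ppargc1b (2.10, limma adjusted p = 0.0973) and Yy1 (0.37, 0.125). Ssbp1 had 260.1, 228, 265 and 218 normalized counts across VC.1-VC.4 and 129, 91.1, 126 and 149 across AP.1-AP.4. No AP library reached the lowest VC value in Ssbp1, while Twnk, the mitochondrial helicase nearest the list's median, had -0.04.

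Other cell types of the skin were followed by marker lists. Although the interfollicular epidermis had been removed, suprabasal keratinocyte markers were present in every library, with summed normalized counts of 5854, 13130.0, 8762 and 6150.1 across VC.1-VC.4 and 37909.6, 39178, 102447 and 152584 across AP.1-AP.4. Of the 10, 8 were higher in AP skin by limma (against 6.33% of all genes) and 0 lower, with a median log2 fold change of 2.90, near Ivl (2.89). The most abundant, Krt10, a keratin of cells leaving the basal layer, had 1302, 4085, 2280.3 and 1838 normalized counts across VC.1-VC.4 and 15852, 17528, 47444 and 73322 across AP.1-AP.4 (log2 fold change 3.85, SE 0.50, limma adjusted p = 0.00367). Every AP library exceeded every VC library in Krt10, AP.4 most. Of the 7 basal markers 3 were higher (against 6.33%, and 2 by edgeR), Itga6 (1.92, adjusted p = 0.00896), Col17a1 (1.73, adjusted p = 0.0298) and Itgb4 (1.11, adjusted p = 0.0425) with limma, and the summed counts, with Krt14 and Krt5 the most abundant, were 28878, 82599.8, 52055 and 24681 across VC.1-VC.4 and 54637, 54592, 101778 and 145127 across AP.1-AP.4. No marker of either list was at 0 in every library. The part of keratinocytes in the members' values was not tested.

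Fibroblast markers, with Col1a1 the most abundant, were high in every library, at summed normalized counts of 121488, 81981, 83539.8 and 223757 across VC.1-VC.4 and 255099, 189578, 136652 and 98434 across AP.1-AP.4. By limma 0 of 8 fibroblast, 0 of 10 adipocyte, 0 of 5 brown adipocyte and 0 of 8 leukocyte markers were called in either direction (against 4.003% of all genes lower and 6.33% higher). At an unadjusted p under 0.05 there were 2, 2, 1 and 4 in either direction (of all 15964 genes, 4840). Of these 1, 0, 0 and 3 were lower and 1, 2, 1 and 1 higher (of all genes, 2120 and 2720). In these lists edgeR called 0 (against 4.46% of all genes lower). DESeq2 called 1 fibroblast and 2 leukocyte markers lower (against 8.55% of all genes). Their median log2 fold changes were 0.28, 0.07, -0.39 and -0.23, nearest to those of Dcn, Lep, Cidea and Cd74. Ucp1 and Cpt1b of the brown adipocyte list were not among the genes listed, and Elovl3 was the most abundant of its 5 tested. Of the 5 red blood cell markers tested 1 was higher (against 6.33% of all genes), Hbb-bs (1.24, adjusted p = 0.0231) with limma, and the median was 0.94, that of Hbb-bt. The list was mixed, since Hba-a2 lay below 0 (-0.81, limma adjusted p = 0.0901) and Hba-a1 at 0.21 with overlapping groups. DESeq2 called 1 marker higher and 1 lower (against 8.55% of all genes lower).

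The members' promoters were searched for letters found in sites of factors known to act on respiratory chain genes. Promoters from 250 bases before to 50 bases after the start were taken from RefSeq (GRCm38.p6), in which 75 of the 92 members matched by symbol, with 80 promoters. GCATGCGC, in sites of Nrf1, occurred on either strand in 12 of the 80 (15.00%), against 2.71% of all 32851 promoters. CCGGAAG, in sites of ETS factors such as Gabpa, occurred in 19 (23.8%), against 8.86%, and AAGATGGC, in sites of Yy1, in 11 (13.8%), against 2.75%. Among the 24 promoters of members called lower, 2, 5 and 4 held these letters, and among the 56 of the other members 10, 14 and 7. A match in letters describes the sequence and is not a measured site of binding.

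For each set of letters, the promoter of the called member with the lowest log2 fold change is shown, 5′ to 3′ along the gene, with the letters in capitals. They are those of Atp5k (chr5:108434350-108434649, minus strand), Ndufb7 (chr8:83566508-83566807, plus strand) and Ndufa3 (chr7:3617123-3617422, plus strand), from RefSeq on GRCm38.p6. In Atp5k the Nrf1 letters occur on both strands and overlap each other, from -50 and -48 bases relative to the start, and ETS letters begin at 12. In Ndufb7 the ETS letters begin at -20, and in Ndufa3 the Yy1 letters at 22.
Atp5k: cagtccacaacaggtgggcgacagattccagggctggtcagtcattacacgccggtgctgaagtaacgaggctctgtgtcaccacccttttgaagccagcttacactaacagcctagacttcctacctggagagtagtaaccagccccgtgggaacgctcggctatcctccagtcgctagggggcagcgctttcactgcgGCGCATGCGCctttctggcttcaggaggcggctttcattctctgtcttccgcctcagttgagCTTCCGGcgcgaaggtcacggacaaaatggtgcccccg
Ndufb7: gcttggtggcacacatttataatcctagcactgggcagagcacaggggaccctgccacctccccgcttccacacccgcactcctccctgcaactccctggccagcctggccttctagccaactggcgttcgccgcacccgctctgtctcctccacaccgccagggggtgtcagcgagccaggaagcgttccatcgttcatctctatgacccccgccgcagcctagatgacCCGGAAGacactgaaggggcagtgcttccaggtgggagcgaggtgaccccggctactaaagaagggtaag
Ndufa3: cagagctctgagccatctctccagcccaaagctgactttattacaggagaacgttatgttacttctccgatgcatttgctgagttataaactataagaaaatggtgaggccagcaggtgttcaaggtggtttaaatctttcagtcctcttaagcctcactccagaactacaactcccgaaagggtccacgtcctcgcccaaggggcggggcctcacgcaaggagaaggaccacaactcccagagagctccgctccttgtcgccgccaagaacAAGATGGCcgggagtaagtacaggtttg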

How the data were processed

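Messenger RNA was measured in 4 VC and 4 AP libraries. STAR was the authors' aligner (mm10), counting per gene was by featureCounts in the methods and HTSeq in the processing notes, and DESeq2 served their comparison. The deposited per-library signal values are read counts divided by a DESeq2 size factor per library, which the authors computed. The table also holds the authors' own comparison (mean, fold change, standard error, statistic, p-value and adjusted p), which was not used. All 150160 values (100.0%) were whole multiples of the value of 1 read within 0.05 reads, so the reads were recovered. Each of the 18770 listed genes had reads in at least 3 libraries, 4 of them had no symbol, and raw reads were not used here.

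The planned choice between limma and edgeR followed the unit: limma 3.58.1 in R 4.3.3 with an intensity trend on log2(value + 1) was used, with a filter of 3 normalized counts in 4 libraries and Benjamini-Hochberg adjustment over all genes tested. edgeR 4.0.16 (quasi-likelihood, TMM) and DESeq2 1.42.0 were run on the recovered reads, as were voom, other scalings, pseudocounts and filters, the study's call rule, thinning of the reads outside mitochondrial genes to 3080758 in each library, and each library left out. Transcript length (shortest APPRIS principal transcript, GENCODE M21) entered a loess trend (span 0.3, genes with a mean of at least 50) removed per library. All gene identifiers were found in that annotation, whose coordinates (GRCm38) are those of mm10. Fits were tested on simulated data. The upper-quartile factor was changed from genes with reads in the given library to genes with reads in any library, its usual form, after its result was seen, and the change raised the number of members called lower under that scaling. Members and lists were chosen with earlier results of these data known. Named were members called, the 2 highest and 2 lowest log2 fold changes per group of complex among members with a mean of at least 50, the highest per kilobase, the isoform pairs, complex II, and of each list the genes called and the nearest to the median; others were named after their values were seen. The lists were the mitochondrially encoded genes, other assembly factors of complexes I to V, electron carriers, the tricarboxylic acid cycle, regulators of mitochondrial biogenesis, and markers of skeletal muscle, adipocytes, brown adipocytes, suprabasal and basal keratinocytes, fibroblasts, leukocytes and red blood cells. A floor of 3 reads was 4.096 to 5.63 normalized counts in VC and 1.49 to 2.18 in AP libraries. Replicates differed by a chi-square over its degrees of freedom of 14.7 to 74.2, so no library was a copy of another.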

Additional observations from a re-analysis of the deposited data

Results flagged for a closer look

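In each group of 4 libraries, the gap of the highest or lowest value to its neighbour was compared with the whole range by Dixon's criterion, for 164 groups of values. It was passed in 16, and chance alone passes about 1 in 20. The skeletal muscle isoforms stood out in AP.1: Cox6a2 had 412 normalized counts there, Cox7a1 92.1 and Cox8b 244, each far above the other AP libraries. Per 100 counts of the ubiquitous partner, AP.1 had 26.4 for Cox6a2, 16.02 for Cox7a1 and 19.9 for Cox8b. The summed muscle markers of AP.1, 98545 normalized counts, stood out in the same way. These values come from the same library and are not independent of each other.

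VC.1 stood above the other VC libraries in Cox6c (4131 normalized counts), Cox7c (3061), Atp5h (2576) and Ndufa3 (964). VC.2 did so in Uqcrc1 (1994) and in the summed brown adipocyte markers (3813), of which Elovl3 held 2697 and Cidea 931. AP.3 was far below the other AP libraries in Atp5a1 (3702) and Ndufa12 (264). The summed leukocyte markers of AP.1 were 13942 normalized counts, above those of the other AP libraries.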

How the results depend on the processing

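The count of 25 members called lower was 41 with DESeq2, 1 with limma without the intensity trend, 5 with the length trend removed (6 by the longest principal transcript, an alternative chosen after seeing the data), 0 with total-count scaling, which gave 27 higher, and 1 to 28 with a library left out. With edgeR, voom, other pseudocounts, filters and scalings, thinned reads and the study's call rule it lay between 23 and 32. DESeq2 kept 25 of the 25, edgeR 24 and upper-quartile scaling 25. Over all genes, 1011 were higher and 639 lower, against 890 and 892 with upper-quartile scaling, 715 and 723 with voom and 8657 and 70 with total counts. DESeq2 called 1362 lower and 1677 higher, limma without the trend 216 and 376.

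In the order complex I subunits, complex I assembly factors and complexes II to V, the median log2 fold changes were 0.27, 0.45, 0.53, 0.35, 0.25 and 0.43 with total counts, -0.37, -0.17, -0.13, -0.22, -0.33 and -0.16 with the length trend removed and -0.34, -0.15, -0.11, -0.23, -0.32 and -0.18 by the longest transcript, and they ranged from -0.65 to -0.51, -0.46 to -0.33, -0.41 to -0.27, -0.69 to -0.40, -0.71 to -0.48 and -0.51 to -0.38 with a library left out. Under the other alternatives they moved by less than the SD between libraries. Total-count scaling turned the sign of these members called lower: Atp5g1 0.22, Atp5h 0.097, Cox5a 0.19, Cox6c 0.0436, Cox7a2l 0.23, Cox8a 0.33, Ndufa12 0.19, Ndufa8 0.19, Ndufab1 0.11, Ndufb4 0.0796, Ndufs4 0.21, Ndufs7 0.0757, Ndufv2 0.23, Ndufv3 0.25, Uqcr10 0.17 and Uqcrh 0.11, and of the listed genes Coq7 0.00292, Idh3b 0.29, Tmem126b 0.0925, Uqcc2 0.0347 and Uqcc3 0.0271. It also gave log2 fold changes above 0, with an adjusted p under 0.05, to Atp5a1 0.75, Cox6a1 0.63, Cox7a2 0.58, Ndufa9 0.79, Ndufaf1 0.69, Sdhc 0.56, Sdhd 0.45, Uqcrc1 0.75, Dlst 0.75 and Twnk 0.83, which lay below 0 and were not called on the deposited scaling. Named members above 0 and not called on the deposited scaling passed as higher too. These were Atp5b 1.11, Ndufs1 1.06, Ndufa4l2 0.97, Sdha 0.93, Ndufa4 0.93 and Uqcrc2 0.88. The difference of the log2 isoform ratios ranged from -1.17 to -0.43 for Cox4i2 to Cox4i1, -2.45 to -1.25 for Cox6a2 to Cox6a1, -1.72 to -0.86 for Cox7a1 to Cox7a2, -1.41 to -0.68 for Cox8b to Cox8a and -0.11 to 0.20 for Ndufa4l2 to Ndufa4 with a library left out, and other pseudocounts changed no side of the threshold. The cause of these changes was not tested. No paired analysis was possible because the sample titles of the groups share no replicate numbers and no library could be tied to a title.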
